A study of Mus musculus with 16 samples.

Results

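The Hox genes encode homeodomain transcription factors that give cells along the body axis and the limbs their positional identity. In the mouse they lie in the clusters Hoxa, Hoxb, Hoxc and Hoxd, and the number in each name follows the order in the cluster. Low numbers are used early and towards the head, whereas high numbers are used late, towards the tail and at the ends of the limbs. Fibroblasts keep a Hox pattern of the body site they came from, while Polycomb complexes hold the clusters mostly silent in embryonic stem (ES) cells. Every probe of the array whose gene name was Hox, followed by a letter from a to d and a number, was taken as a member, without regard to its values. This rule found 50 probes for 38 genes, among 41174 probes. Of these, 45 were well above background on at least 1 of 16 arrays and were tested. The remaining 5 were second probes of Hoxa3, Hoxa4, Hoxb8 and Hoxd3 and the lone probe of Hoxd12, which had only a bound on every array.

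The arrays were 1-colour whole mouse genome arrays, each with RNA of 1 cell culture. The MEF array (n = 1) held C57BL/6 mouse embryonic fibroblasts, isolated from wild-type mid-gestation embryos. The ES lines were B6ES (C57BL/6) and TT2 (C57BL/6 x CBA), and the iPS line 20D17 (C57BL/6 x DBA, n = 1) had been made with retrovirus vectors. The other iPS clones were C57BL/6 and were made from MEFs with a human artificial chromosome (HAC), a vector that stays apart from the host chromosomes and carries Klf4, c-Myc, Sox2 and Oct4 under the CAG promoter. iHAC1 carried 2 copies of each factor and gave iHAC1-iPS cells, of which 1-A3, 1-B, 1-C3 and clone 1-D6 were used. iHAC2 carried the same cassettes with 2 further copies of Oct4 and a knockdown of p53, and gave iHAC2-iPS cells, of which 2-B1, 2-C6, 2-E and clone 2-N were used. The iHAC-free iPS cells had lost iHAC2: F-B1 came from 2-B1, F-C5 from 2-C6, F-E4 from 2-E and F-N7 from 2-N. Each iPS sample was 1 clone. Mimics of miR-294 and miR-295 had been given during reprogramming with the HAC vectors, and ES and HAC-iPS cells were kept on a feeder layer of MEFs of another strain (ICR).

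Levels are log2 processed signals after subtraction of the 75th percentile of their own array, so that 0 is the brightness of the probe at that percentile. A probe was called when limma gave an adjusted p under 0.05 over all 31415 tested probes and the difference was at least 2-fold. The fit held all 16 arrays, and the lone MEF array was assumed to vary like the other groups. Replicates were separate clones or lines, and their number limits the precision of every difference. On each array 54.2% to 65.8% of the spots were well above background, and no spot was saturated. The lowest level still well above background was higher on the iHAC2-iPS arrays (-5.07 to -4.35) than on the MEF array (-6.00), the ES arrays (-5.85 to -5.53) and the iHAC1-iPS arrays (-5.77 to -5.32). The iHAC2-iPS and iHAC-free iPS arrays were read in another scan session than the rest, so session and group cannot be told apart in comparisons of these with ES or iHAC1-iPS cells. In bulk cultures, fewer cells of a type and less RNA per cell cannot be told apart either.

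MEFs carried Hox transcripts of all 4 clusters, and ES cells and every iPS group lay below them. On the MEF array 43 of the 50 probes were well above background. On the ES arrays this held for 22 (B6ES) and 26 (TT2), on the iHAC1-iPS arrays for 22 to 29, on the iHAC2-iPS arrays for 17 to 24 and on the iHAC-free iPS arrays for 23 to 26. The 20D17 array lay between, with 34. On 31 of the 45 tested Hox probes the MEF level was above that of each of the other 15 arrays, which held for 17.9% of all tested probes.

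Against ES cells, 30 of the 45 tested Hox probes, for 25 genes, were called higher in MEFs and 0 lower, while 13.5% of all tested probes were called higher and 16.1% lower. By an unadjusted p under 0.05, 33 passed. The median Hox difference was 2.24 on the log2 scale, against -0.20 over all tested probes. Of the tested Hox probes, 9 were well above background on the MEF array alone and so had to lie higher there; the 8 of them that were called count for nothing in favour of a difference. Of the 16 Hox probes that were well above background on every array, 11 were called higher in MEFs, against 11% of all probes of that kind, with a median of 1.94. Over all 50 members without the filter the median was 2.10, and over the tested ones it was 1.93 with bounds in place of differences from a group at background. The count depended on B6ES: without it 17 Hox probes were called. With a normexp background correction, which pulls dim probes together, 20 were called and the median was 0.64.

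The highest fold over ES cells among Hox genes measured in both groups was that of Hoxd13, which patterns the digits. It had a level of 1.35 in MEFs on its brighter probe (chr2:74509248-74509307 on mm9). In ES cells its level was -3.39 (B6ES) and -3.80 (TT2), and in 20D17 it was -2.73. Among the iHAC1-iPS clones the level was -5.32 in 1-A3, -4.96 in 1-B, -4.55 in 1-C3 and -4.43 in 1-D6. All 15 other arrays were thus far below the MEF array. The level in iHAC2-iPS clones was -4.47 in 2-B1, -3.43 in 2-C6, -5.25 in 2-E and -4.33 in 2-N, and in iHAC-free iPS lines it was -4.58 in F-B1, -5.13 in F-C5, -4.68 in F-E4 and -4.65 in F-N7. In 1-A3, 2-B1, 2-E and F-C5 the signal was not well above background, and the iHAC1-iPS mean includes that of 1-A3. The MEF level was 30.7-fold above the ES mean (log2 difference 4.94 ± 0.57 SE, limma adjusted p = 0.000113) and 71.6-fold above the iHAC1-iPS mean (6.16 ± 0.52 SE, adjusted p = 1.21e-05). A second Hoxd13 probe was well above background in MEFs only, so that it had to lie higher there. Its bound was at least 22.9-fold above ES cells (adjusted p = 9.91e-07).

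Hoxd10, active in the limb and the lower spinal cord, had a level of -1.72 in MEFs. It was not well above background on either ES array, and among the iPS arrays it was so only on 1-D6 (-4.89) and 20D17 (-4.88). The other signals were -7.10 (B6ES), -5.81 (TT2), -7.33 (1-A3), -5.41 (1-B) and -6.10 (1-C3), and -6.24 (2-B1), -6.21 (2-C6), -6.74 (2-E), -6.69 (2-N), -5.83 (F-N7), -6.99 (F-B1), -5.59 (F-C5) and -6.86 (F-E4). It was at least 15.4-fold higher in MEFs than in ES cells (adjusted p = 0.00177). Hoxd11, which acts with Hoxa11 in the forearm, was well above background on the MEF array only (-2.87), with -7.83 (B6ES) and -8.17 (TT2) in ES cells, -7.61 (1-A3), -7.73 (1-B), -7.85 (1-C3) and -8.03 (1-D6) with iHAC1, -6.65 (2-B1), -6.43 (2-C6), -6.78 (2-E) and -5.12 (2-N) with iHAC2, -7.46 (F-N7), -7.80 (F-B1), -6.92 (F-C5) and -7.87 (F-E4) after its loss and -6.98 in 20D17. It was at least 7.05-fold higher than in ES cells (adjusted p = 8.88e-05). Hoxd9 was called on both of its probes, by bounds of 3.27-fold and 2.46-fold, and Hoxd4, of the cervical hindbrain and spine, was measured on every array and was 3.88-fold higher in MEFs (adjusted p = 0.0191). The calls of Hoxd cluster probes against ES cells numbered 7 of 10 tested. Those of Hoxd11, both Hoxd9 probes and the second Hoxd13 probe, seen in MEFs alone, count for nothing in favour of a difference. Hoxd8 (log2 difference 1.98, adjusted p = 0.221) and Hoxd3 (at least 1.68-fold, adjusted p = 0.15) did not pass, and Hoxd1 was not well above background in MEFs or ES cells.

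In the Hoxa cluster 8 of 12 tested probes were called higher in MEFs than in ES cells. Hoxa11, which patterns the forearm and the uterus, had a level of 0.84 in MEFs. Its level was -3.49 in B6ES, -2.37 in TT2 and -1.57 in 20D17. In iHAC1-iPS clones it was -2.78 (1-A3), -2.77 (1-B), -3.35 (1-C3) and -1.96 (1-D6). Each of these lay far below MEFs. In iHAC2-iPS clones the level was -3.33 (2-B1), -3.33 (2-C6), -4.72 (2-E) and -3.49 (2-N), and in iHAC-free iPS lines it ranged from -3.25 (F-N7) to -3.02 (F-B1). Hoxa11 was 13.6-fold higher in MEFs than in ES cells (3.77 ± 0.63 SE, adjusted p = 0.00101) and 11.7-fold higher than in iHAC1-iPS cells (3.55 ± 0.57 SE, adjusted p = 0.00107).

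Hoxa10, which patterns the thigh and the lumbar spine, had a level of -0.27 in MEFs, of -4.67 in B6ES and of -3.71 in TT2. The iHAC1-iPS clones had levels of -3.95 (1-A3), -4.23 (1-B), -4.50 (1-C3) and -2.79 (1-D6), and 20D17 had -2.64. The iHAC2-iPS signals ran from -6.28 (2-N) to -3.76 (2-C6), and the iHAC-free signals from -4.82 (F-N7) to -4.41 (F-C5). Those of 2-B1, 2-E, 2-N and F-N7 were not well above background. No other group overlapped with MEFs, which were 15.1-fold above ES cells (adjusted p = 0.00572) and 12.1-fold above iHAC1-iPS cells (adjusted p = 0.00764). Hoxa2, which patterns the face and the middle ear, was well above background in MEFs (-2.93) and 20D17 (-4.57) only, and was at least 6.78-fold higher in MEFs than in ES cells (adjusted p = 0.00104). Its signals elsewhere, all close to background, were -7.75 (B6ES), -6.86 (TT2), -7.43 (1-A3), -7.67 (1-B), -7.78 (1-C3) and -6.13 (1-D6), and -6.53 (2-B1), -5.53 (2-C6), -7.30 (2-E), -7.00 (2-N), -7.34 (F-N7), -7.14 (F-B1), -7.22 (F-C5) and -7.76 (F-E4). Hoxa4 was at least 5.68-fold higher (adjusted p = 0.0204). Of the Hoxa13 probes, the dimmer was called by a bound of 2.31-fold (adjusted p = 7.49e-05) and the brighter was not (adjusted p = 0.0627). The dimmer was seen in MEFs alone, so its call counts for nothing in favour of a difference. Hoxa5, a gene of lung and neck development, was 12.1-fold higher in MEFs (adjusted p = 0.00397), with a B6ES signal that was not well above background. Hoxa7 was 6.15-fold higher (adjusted p = 0.00829) and Hoxa9, which is also a factor of blood progenitors, was 6.13-fold higher (adjusted p = 0.00797). Hoxa3 (0.07, 95% interval -0.55 to 0.69) was not called, and neither was Hoxa6. Hoxa6 had a level of -5.17 in MEFs and was not well above background in B6ES (-5.39) or TT2 (-5.46).

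Of the 10 Hoxb genes, 7 and 9 were well above background in the ES lines, 6 to 8 in iHAC1-iPS clones, 5 to 7 in iHAC2-iPS clones and 8 to 9 in iHAC-free iPS lines. Hoxb6, a gene of the trunk, had a level of -0.21 in MEFs on its brighter probe. On that probe B6ES had -2.64 and TT2 -1.65, and the 20D17 level was -0.85. The iHAC1-iPS clones had levels of -1.74 (1-A3), -1.84 (1-B), -2.06 (1-C3) and -1.22 (1-D6). All arrays were below MEFs, with 20D17 closest. The iHAC2-iPS clones had levels of -1.27 (2-B1), -2.30 (2-C6), -2.28 (2-E) and -2.84 (2-N), while levels in iHAC-free iPS lines ran from -1.99 (F-E4) to -1.50 (F-C5). On this probe MEFs were 3.81-fold above ES cells (adjusted p = 0.0180) and 2.84-fold above iHAC1-iPS cells (adjusted p = 0.0484). The second Hoxb6 probe did not show this. Its level was -2.25 in MEFs, against means of -2.43 in ES cells and -0.96 in iHAC1-iPS cells.

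Hoxb3, a hindbrain gene, had a level of -1.1 in MEFs, of -4.30 in B6ES, of -3.61 in TT2 and of -3.19 in 20D17. In iHAC1-iPS clones it was -2.76 (1-A3), -3.70 (1-B), -3.33 (1-C3) and -3.20 (1-D6). MEFs were 7.2-fold above ES cells (adjusted p = 0.00314) and 4.42-fold above iHAC1-iPS cells (adjusted p = 0.0122). This probe is also listed for the Hoxd3 transcript, so its signal may be shared. The second Hoxb3 probe was 6.19-fold higher in MEFs than in ES cells (adjusted p = 0.0248). Hoxb9, a gene of the thorax, was higher in MEFs on both probes (4.83-fold and 4.59-fold, adjusted p = 0.0103 and 0.0120), Hoxb2 was 4.58-fold higher (adjusted p = 0.0272), Hoxb8 3.99-fold (adjusted p = 0.0441), Hoxb5 was 8.49-fold higher (adjusted p = 0.00204) and Hoxb7 2.91-fold higher (adjusted p = 0.0356). For Hoxb8 the B6ES signal was not well above background. In all, 9 of 14 tested Hoxb probes were called. Hoxb4, a factor of blood stem cells, was not (1.5, interval -0.75 to 3.76), nor was the second probe of Hoxb2, which lies on the strand opposite to the cluster. Hoxb13 (1.92) and the second Hoxb6 probe were not called either. Hoxb1, an early hindbrain gene, was not well above background in MEFs or ES cells.

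In the Hoxc cluster 6 of 9 probes were called higher in MEFs than in ES cells. Those of Hoxc12, Hoxc13 and the second Hoxc10 probe, seen in MEFs alone, count for nothing in favour of a difference. Hoxc9, which acts in the spine and the motor neurons of the thorax, was 4.88-fold higher (adjusted p = 0.00743), with a level of 0.91 in MEFs against -1.87 in B6ES and -0.88 in TT2. Hoxc6, of the same region, was 3.54-fold higher (adjusted p = 0.0150). Hoxc10, a hindlimb gene, had a level of -2.95 in MEFs and was otherwise well above background only in 1-A3 (-4.31), 1-D6 (-4.54) and 20D17 (-4.51), and the bound against ES cells was 6.41-fold (adjusted p = 0.00308). Its other signals were -6.49 (B6ES), -5.74 (TT2), -5.36 (1-B) and -5.42 (1-C3), and -4.57 (2-B1), -5.76 (2-C6), -5.96 (2-E), -5.67 (2-N), -6.52 (F-N7), -5.59 (F-B1), -5.87 (F-C5) and -5.41 (F-E4). Hoxc12 (-4.03) and Hoxc13 (-5.40), a gene of hair and nails, were well above background in MEFs alone, with bounds of 3.16-fold and 1.23-fold against ES cells. The signals of Hoxc12 elsewhere ran from -7.71 (TT2) to -6.16 (2-B1) and those of Hoxc13 from -7.54 (1-D6) to -5.40 (2-E), and with normexp Hoxc13 turned to -0.28. Hoxc4 and Hoxc5, of the neck and upper trunk, were not called. Neither was Hoxc8, which was well above background in MEFs alone (-5.49). The difference of Hoxc4 was -0.19 (interval -0.67 to 0.30) and that of Hoxc5 was -0.98 (interval -1.84 to -0.11, adjusted p = 0.0741).

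**Figure D1:**
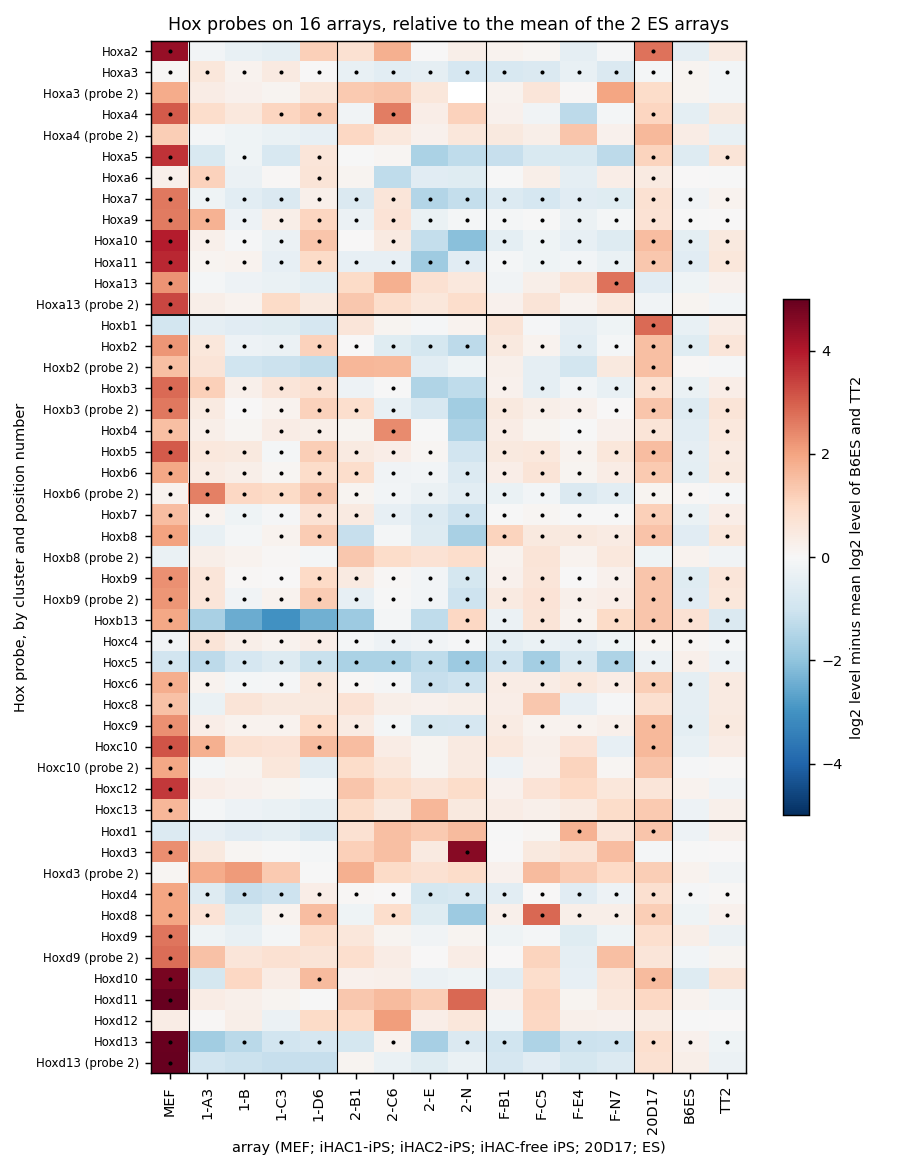
Each row is 1 of 49 of the 50 Hox probes, ordered by cluster and position number, and each column 1 of the 16 arrays; colour gives the log2 level minus the mean of the 2 ES arrays (full colour from 5 up), and a dot marks a probe well above background on that array (blank: no value). The MEF column is red for most probes from position 2 upward in all 4 clusters, and the 20D17 column is the next reddest.

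By position number, 4 of 10 tested probes of the genes numbered 1 to 3 were called higher in MEFs than in ES cells, 9 of 16 of those numbered 4 to 8 and 17 of 19 of those numbered 9 to 13. The medians were 1.86, 1.88 and 2.81 on the log2 scale. Against iHAC1-iPS cells the counts were 3, 6 and 19, with medians of 2.02, 1.52 and 2.63. Of all tested probes 13.5% were higher in MEFs than in ES cells and 9.16% than in iHAC1-iPS cells. Whether the position classes differed was not tested, and 8 of the 9 probes seen in MEFs alone were in the class of highest numbers. Of all tested probes seen in MEFs alone, 79.1% were called higher against ES cells and 74.4% against iHAC1-iPS cells. Such probes thus raise the counts of that class.

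**Figure D2:**
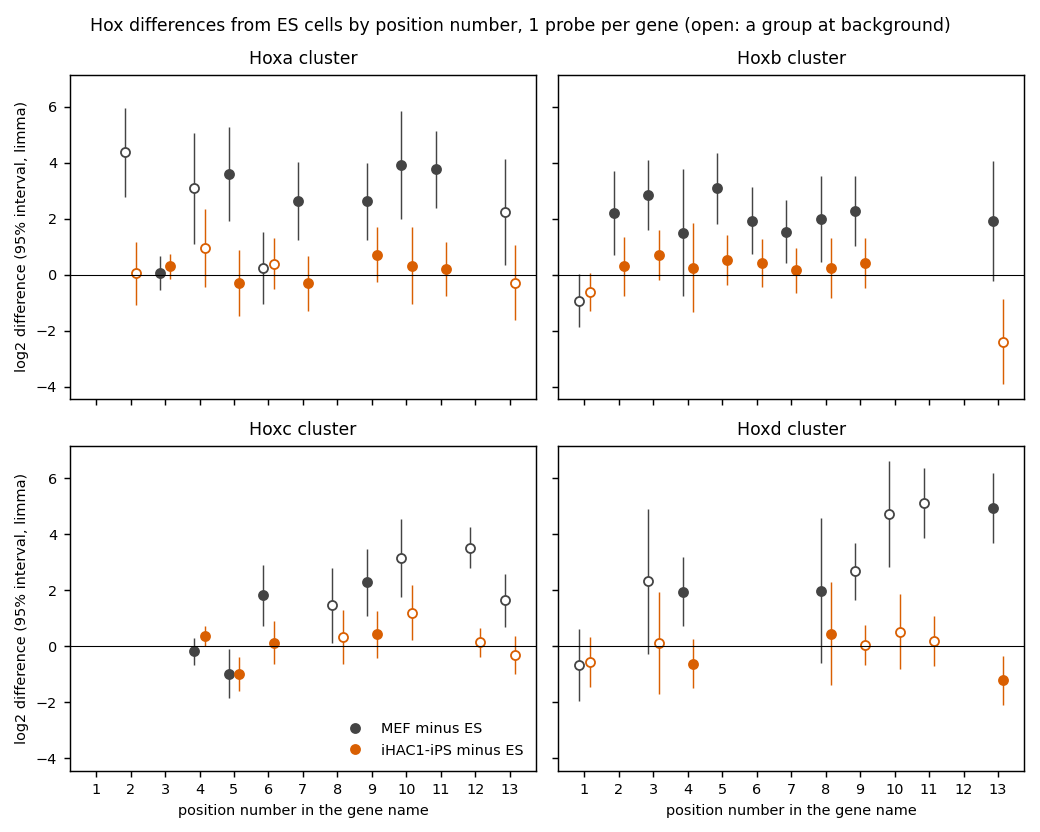
For the brighter probe of each of 36 tested Hox genes, points give the log2 difference of MEFs from ES cells (dark grey) and of iHAC1-iPS from ES cells (orange) against the position number in the gene name, 1 panel per cluster, with 95% limma intervals. Open points have a group that was not well above background on any array, so that their height is not a measured size. Among the filled points MEFs exceed ES cells most at Hoxd13 (4.94), while most iHAC1-iPS intervals include 0.

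The promoters of a few members are shown so that genes that differed between MEFs and ES cells can be set beside 1 that did not. RefSeq windows on GRCm38.p6, from 250 bases before to 50 bases after a start, were at hand for 22 of the 38 genes (24 windows). CG pairs, the sites of DNA methylation, are in capitals. Hoxa2 (chr6:52164782-52165081, minus strand, 9 CG), Hoxb8 (chr11:96281655-96281954, plus strand, 13 CG) and Hoxd13 (chr2:74667975-74668274, plus strand, 37 CG) were called higher in MEFs, and Hoxc4 (chr15:103034145-103034444, plus strand, 9 CG) was not.
Hoxa2: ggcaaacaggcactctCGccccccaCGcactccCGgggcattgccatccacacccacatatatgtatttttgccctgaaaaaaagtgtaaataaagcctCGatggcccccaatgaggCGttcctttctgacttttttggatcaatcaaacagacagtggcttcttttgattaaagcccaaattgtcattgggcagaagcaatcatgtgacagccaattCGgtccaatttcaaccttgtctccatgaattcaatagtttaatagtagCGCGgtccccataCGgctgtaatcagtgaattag
Hoxb8: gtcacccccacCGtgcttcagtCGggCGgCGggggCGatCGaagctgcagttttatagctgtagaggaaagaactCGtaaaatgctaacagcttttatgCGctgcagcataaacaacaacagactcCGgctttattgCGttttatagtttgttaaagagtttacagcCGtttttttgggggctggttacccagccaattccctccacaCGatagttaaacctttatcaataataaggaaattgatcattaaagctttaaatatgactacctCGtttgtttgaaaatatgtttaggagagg
Hoxd13: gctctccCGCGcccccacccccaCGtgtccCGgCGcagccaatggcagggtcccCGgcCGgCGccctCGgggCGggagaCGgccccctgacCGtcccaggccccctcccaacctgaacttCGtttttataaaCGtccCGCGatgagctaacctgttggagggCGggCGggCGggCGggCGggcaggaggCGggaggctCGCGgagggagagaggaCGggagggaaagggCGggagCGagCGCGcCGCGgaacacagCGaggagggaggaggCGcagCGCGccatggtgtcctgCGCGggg
Hoxc4: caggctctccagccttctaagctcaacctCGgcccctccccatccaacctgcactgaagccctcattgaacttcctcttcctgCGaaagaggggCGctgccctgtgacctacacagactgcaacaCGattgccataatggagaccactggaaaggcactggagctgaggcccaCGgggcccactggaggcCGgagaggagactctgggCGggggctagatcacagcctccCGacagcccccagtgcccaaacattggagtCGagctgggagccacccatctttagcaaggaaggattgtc
The Hox windows held a median of 14.5 CG pairs (range 4 to 45), and all 32841 windows of the table a median of 7. Windows of the Hox genes called in MEFs against ES cells had a median of 15 CG (15 windows) and those of the others 14 (9 windows). The letters TATAAA, searched on both strands, stood in 4 of 24 Hox windows (16.7%) and in 13.6% of all windows, and CCAAT, likewise on both strands, in 62.5% and 37.4%. A match is a string of letters and not a site that is known to be used. All 4 Hox windows with TATAAA, those of Hoxb8, Hoxd4 and Hoxd13 and 1 of Hoxa10, belonged to genes called in MEFs. So did 15 of the 24 windows, and the windows of the other genes included Hoxd12, which was not tested. A link between the string and the calls was not tested.

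MEFs were next compared with the iHAC1-iPS clones. Of the 45 tested Hox probes, 28 were called higher in MEFs than in iHAC1-iPS cells and 0 lower, with a median difference of 1.94, while 9.16% of all tested probes were called higher and 9.32% lower, with a median of -0.20. Of the 16 probes well above background on every array, 10 were called. Of the 9 seen in MEFs alone 8 were called, and these count for nothing in favour of a difference. With normexp 20 Hox probes were called higher and 1 lower in MEFs, with a median of 0.51. This comparison shares the MEF array with the one against ES cells and is not separate evidence. Within slide 1, which held the MEF array and 3 of the clones, the median Hox difference was 2.07 and 38 probes were higher in MEFs. Single calls were close to the threshold: Hoxb7 (2.62-fold, adjusted p = 0.0502), the second Hoxb3 probe (4.53-fold, adjusted p = 0.05 after rounding), Hoxb8 (3.38-fold, adjusted p = 0.0670) and Hoxa4 (4.41-fold, adjusted p = 0.0824) did not pass.

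The iHAC1-iPS clones were then compared directly with ES cells, and few Hox probes were called. Only 3 of 45 were called, 1 higher and 2 lower, against 6.88% and 7.39% of all tested probes, with 8 at an unadjusted p under 0.05. The median Hox difference was 0.24, against 0.02 over all tested probes. For 16 of the 45 probes both groups were at background or no bound could be set, so these cannot show whether the groups differed. With these set to 0 and bounds used, the median was 0. The 95% interval included 0 for 37 probes and lay within 2-fold on both sides for 8, with a median half-width of 0.90. For the other probes a difference of 2-fold or more was thus not excluded. Hoxa11 differed by 0.21 (interval -0.75 to 1.18), Hoxa7 by -0.30 (interval -1.28 to 0.69), Hoxc9 by 0.42 (interval -0.42 to 1.26) and Hoxd13 by -1.22 (interval -2.10 to -0.34, adjusted p = 0.05 after rounding, not called). Hoxc5, at -0.98 (adjusted p = 0.0277), fell just short of 2-fold. Without B6ES, or with the slide as a fixed block, 0 were called. Within slide 2, which held both ES lines and 1-D6, the median Hox difference of 1-D6 from ES cells was 0.59.

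The called probe that was higher in iHAC1-iPS cells was the second probe of Hoxb6. Its levels were 0.11 in 1-A3, -1.38 in 1-B, -1.48 in 1-C3 and -1.07 in 1-D6. In the iHAC2-iPS clones they were -2.31 (2-B1), -2.56 (2-C6), -2.70 (2-E) and -2.96 (2-N), in B6ES -2.36, in TT2 -2.50, in 20D17 -2.30 and in MEFs -2.25. All 4 iHAC1-iPS arrays lay above all the others. The difference was 2.78-fold from ES cells (1.47 ± 0.37 SE, adjusted p = 0.0155) and 3.20-fold from iHAC2-iPS cells (1.68 ± 0.30 SE, adjusted p = 0.00161), and the former was not called without either ES line, with only these groups in the fit or with the slide as a fixed block. This probe, at chr11:96160281-96160340 on mm9, lies away from the brighter Hoxb6 probe at chr11:96162563-96162622 and was designed on another transcript record. The brighter probe was not called between these groups (0.43 from ES cells), so the 2 probes of Hoxb6 disagree.

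Hoxb13, a gene of the tail and the prostate that lies apart from the rest of its cluster, went the other way. Its level was -2.89 in MEFs, -4.08 in B6ES, -5.54 in TT2 and -3.42 in 20D17. On none of the 4 iHAC1-iPS arrays did its signal stand well above background. In iHAC2-iPS clones it was so only in 2-N (-3.79), and in iHAC-free iPS lines it was -3.85 (F-N7), -5.08 (F-B1), -4.16 (F-C5) and -4.63 (F-E4). The iHAC1-iPS cells were at least 6.16-fold below MEFs (adjusted p = 0.00507) and at least 1.63-fold below ES cells (adjusted p = 0.0301), and the latter call was lost without B6ES, without 1-B, 1-C3 or 1-D6, and with normexp, quantile normalization or the slide as a fixed block. The third call, of the second Hoxd13 probe, compared groups that were both not well above background and has no fold.

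**Figure D3:**
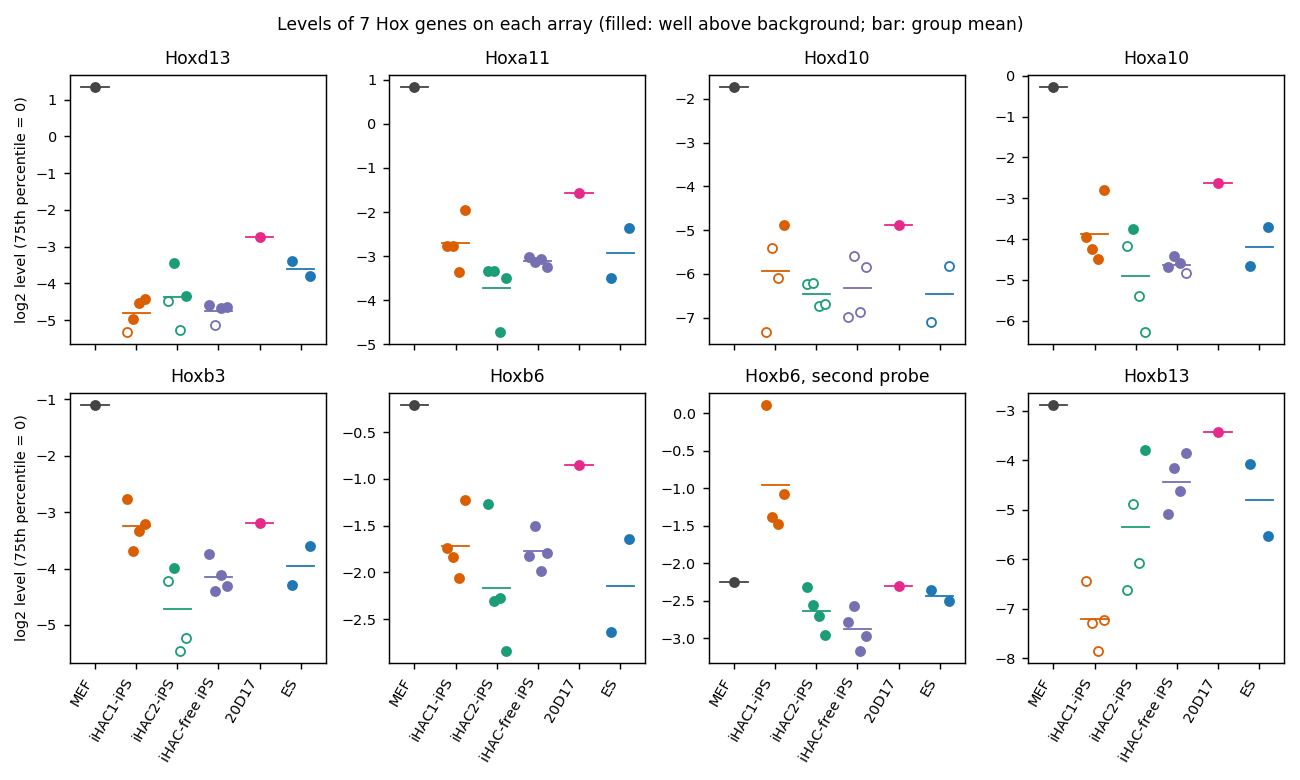
Points give the log2 level (75th percentile of the array = 0) of 7 Hox genes on each array, by group, with a line at the group mean; filled points were well above background and open points were not. The MEF point is above all others for Hoxd13, Hoxa11, Hoxd10, Hoxa10, Hoxb3, Hoxb13 and the brighter Hoxb6 probe, and not for the second Hoxb6 probe, on which the iHAC1-iPS points are highest.

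Against ES cells the iHAC2-iPS clones had 2 of 45 Hox probes called, 1 higher and 1 lower (3.45% and 3.27% of all tested probes; 8 Hox probes at an unadjusted p under 0.05), with a median difference of -0.11. For 19 of the 45 probes both groups were at background or no bound could be set, so these cannot show whether the groups differed. With these set to 0 and bounds used, the median was 0. With normexp 0 were called, and quantile normalization kept the lower call alone. Hoxc5, a gene of the neck and upper thorax, was the measured one. Its levels were -3.25 (2-B1), -3.26 (2-C6), -2.97 (2-E) and -3.49 (2-N), against -1.43 in B6ES and -1.94 in TT2. No iHAC2-iPS array reached an ES array, and the mean was 2.94-fold lower (-1.56 ± 0.28 SE, adjusted p = 0.00916). The call was lost without B6ES, with normexp and with only the 2 groups in the fit. The other call, Hoxd11, was not well above background in either group. Hoxa11 differed by -0.79 (interval -1.76 to 0.17) and Hoxc9 by -0.35 (interval -1.19 to 0.49).

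In the iHAC-free iPS lines 0 of 45 Hox probes were called against ES cells by limma, where 0.172% of all tested probes were called higher and 0.194% lower, and 6 passed an unadjusted p under 0.05. The median Hox difference was 0.14, and it was -0.25 with normexp and -0.03 with quantile normalization. For 19 of the 45 probes both groups were at background or no bound could be set, so these cannot show whether the groups differed. With these set to 0 and bounds used, the median was 0. The intervals had a median half-width of 0.90 and 39 of 45 included 0. Hoxc5 (-1.26, interval -1.87 to -0.65, adjusted p = 0.0608), Hoxd13 (-1.17, interval -2.05 to -0.29, adjusted p = 0.144) and Hoxa3 (-0.65, interval -1.09 to -0.21, adjusted p = 0.116) were among those that did not. Hoxa11 differed by -0.19 (interval -1.16 to 0.78) and Hoxc9 by 0.26 (interval -0.58 to 1.1). Against the iHAC2-iPS clones that they came from, 0 Hox probes were called either (0.216% and 0.554% of all tested probes were higher or lower in iHAC2-iPS; 7 Hox probes at an unadjusted p under 0.05), with a median difference of 0.08. It was 0.24 with normexp, -0.23 with quantile normalization and -0.33 over the 16 probes well above background on every array, so the median had no settled sign. Within slide 3 the median was -0.08 and within slide 4 it was -0.05, and 21 probes were higher in iHAC2-iPS on each. For 18 of the 45 probes both of these groups were at background or no bound could be set.

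Between the clones made with iHAC1 and iHAC2, 9 of 45 Hox probes (20%) were called, 4 higher and 5 lower in iHAC1-iPS. Of all tested probes 8.68% were higher and 11.3% lower, so Hox probes were called about as often as probes in general. With quantile normalization 6 Hox probes were higher and 2 lower, and with normexp 1 was higher and 0 lower. On its brighter probe Hoxb3 was 2.78-fold higher in iHAC1-iPS (1.48 ± 0.33 SE, adjusted p = 0.00555). Its levels in iHAC2-iPS clones were -4.23 (2-B1), -3.99 (2-C6), -5.45 (2-E) and -5.22 (2-N), of which only 2-C6 was well above background. The second Hoxb3 probe, with means of -3.96 in iHAC1-iPS and -4.92 in iHAC2-iPS cells, was not called. Hoxa11 was 2.01-fold higher (adjusted p = 0.0455), but the groups overlapped and the call was lost without 1-A3, 1-B, 1-D6, 2-E or 2-N, with only these groups in the fit, with normexp and with the slide as a random block. With normexp the call of Hoxb3 (0.50) was lost too, and the second Hoxb6 probe alone was kept. Hoxb13 was lower, by at least 1.12-fold (adjusted p = 0.0240), and Hoxb8 higher (adjusted p = 0.0469), with no bound on its fold since no iHAC2-iPS array had it well above background. Hoxd11, Hoxd1 and Hoxc13 were not well above background in either group, and the higher background on the iHAC2-iPS arrays stands beside their calls; its part in them was not tested.

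Single clones stood out for single genes, described here without a test. In 2-N the brighter Hoxd3 probe had a level of -2.70, above MEFs (-4.95), and was well above background on no array other than these. The second Hoxd3 probe did not show this, with -6.80 in 2-N, and was well above background on no array. F-C5 had a Hoxd8 level of -1.90, also above MEFs (-2.79), and its parent 2-C6 had -3.87. Only MEFs and F-N7 (-4.60) were well above background for the brighter Hoxa13 probe. The other Hoxa13 probe, at -4.49 in MEFs, was not well above background in F-N7 (-7.33), so the probes disagree there. In 2-C6, Hoxb4 (-3.17) was above its MEF level (-4.03) and Hoxa4 (-3.63) was below it (-3.12). The second Hoxa4 probe, with -6.78 in 2-C6, was well above background on no array. Hoxb1 was well above background in 20D17 alone (-4.17), and Hoxd1 in F-E4 (-5.13) and 20D17 (-5.51) alone.

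Levels of fibroblast markers were read beside those of the Hox genes, since each culture may hold fibroblasts, including feeder cells. All 19 measured fibroblast markers were well above background on every array, with a median log2 level of 3.15 in MEFs, -0.28 in B6ES, 1.43 in TT2 and 2.23 in 20D17. The median was 1.73 to 2.71 in iHAC1-iPS, 0.34 to 2.05 in iHAC2-iPS and 1.33 to 1.67 in iHAC-free iPS cells. On the 16 Hox probes well above background on every array, the median difference from the ES mean was -0.26 in B6ES, 0.26 in TT2 and 1.21 in 20D17. In iHAC1-iPS it was highest in 1-D6 (0.83) and 1-A3 (0.37), the clones with the most fibroblast signal (2.66 and 2.71). Among iHAC2-iPS clones the Hox median was -0.04 in 2-B1, -0.11 in 2-C6, -0.58 in 2-E and -0.85 in 2-N. The fibroblast median in the same clones was 2.05, 1.32, 0.68 and 0.34. The part of fibroblasts in the Hox signal of these cultures was not tested.

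Both lists are given side by side for iHAC1-iPS cells. Between MEFs and iHAC1-iPS cells the median difference of the 19 fibroblast markers was 0.60, with 4 called higher in MEFs and 1 lower, against 1.94 for the Hox probes. Of all tested probes 9.16% were higher and 9.32% lower in MEFs. Between iHAC1-iPS and ES cells the median fibroblast difference was 1.62, with 9 called higher and 0 lower, against 0.24 for the Hox probes. Here 6.88% of all tested probes were higher and 7.39% lower. Whether the lists differed was not tested. Of 11 pluripotent markers, 9 were lower and 1 higher with iHAC1 than in ES cells, with a median difference of -4.01, and 1-A3 (-3.40) and 1-D6 (-2.66) had the lowest median levels outside MEFs (-5.48).

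**Figure D4:**
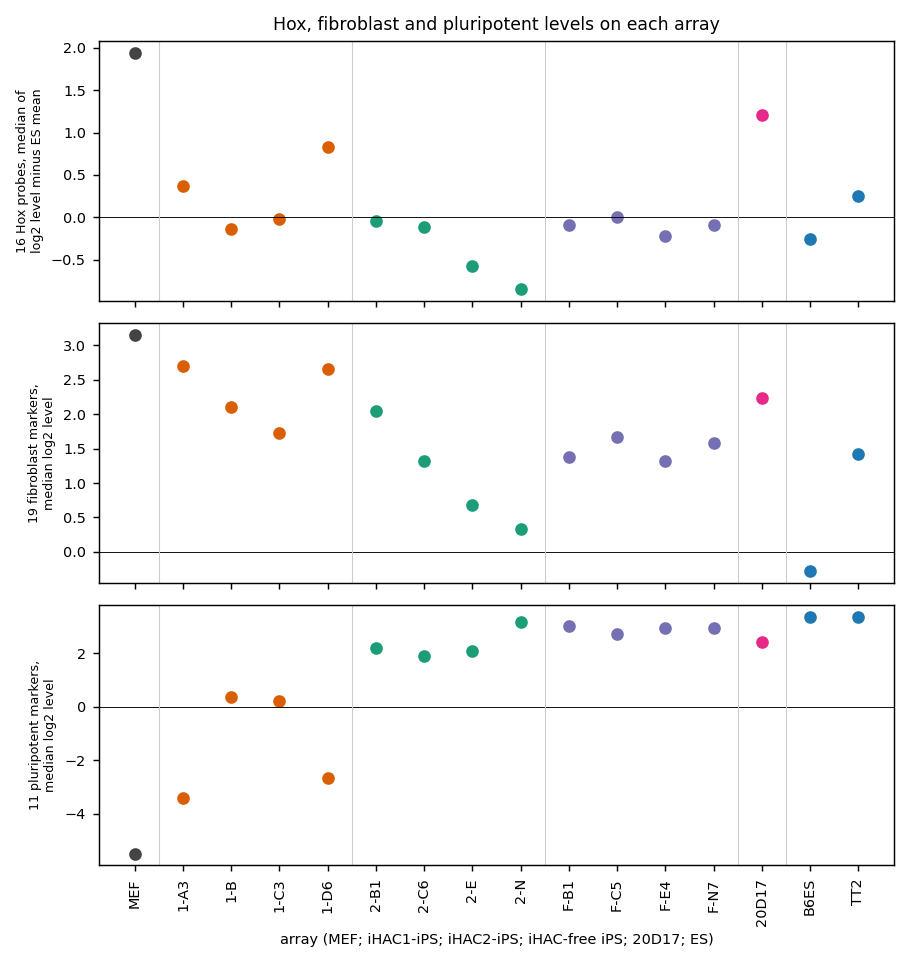
For each array, the top panel gives the median over the 16 Hox probes that were well above background on every array, as log2 level minus the ES mean, and the lower panels give the median log2 level of 19 fibroblast and 11 pluripotent markers. MEFs (1.94, 3.15 and -5.48) are highest in the upper panels and lowest in the bottom panel, and 2-N is the lowest array of the top panel.

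Cofactors that bind DNA together with Hox proteins were also read. Of 9 TALE homeodomain genes, all measured, 3 were called higher in MEFs than in ES cells, and 4 higher with iHAC1 than in ES cells. The shares of all tested probes were 13.5% and 6.88%. Between MEFs and iHAC1-iPS cells 0 of the 9 were called (adjusted p of 0.0596 for Meis1 and 0.746 for Meis3). Of all tested probes, 9.16% were higher and 9.32% lower in MEFs there. Meis2, a limb and brain cofactor, had a level of 3.32 in MEFs, of 3.74, 2.51, 2.91 and 3.37 in 1-A3, 1-B, 1-C3 and clone 1-D6, and of -1.62 and -0.50 in B6ES and TT2. The iHAC1-iPS clones lay on both sides of MEFs and far above ES cells. Their log2 difference from ES cells was 4.19 ± 0.40 SE (adjusted p = 7.51e-05) and that from iHAC2-iPS cells 3.70 ± 0.33 SE (adjusted p = 3e-05), while MEFs differed from them by 0.19 ± 0.51 SE (adjusted p = 0.82). Meis1 (1.67, adjusted p = 0.0171) and Meis3 (1.58, adjusted p = 0.0112) were also above their ES levels in iHAC1-iPS cells. Between iHAC-free iPS and ES cells 0 of 9 were called (0.172% of all tested probes higher and 0.194% lower).

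Retinoic acid and the Cdx factors switch on Hox genes, and 14 of 16 genes of this list were measured. Rarb, a receptor and target of retinoic acid, was higher in MEFs than in ES cells (6.34, adjusted p = 5.43e-05) and than in iHAC1-iPS cells (5.93, adjusted p = 4.36e-05). Aldh1a2, which makes retinoic acid in the embryo, likewise lay higher in MEFs (3.60 and 4.69, adjusted p = 1.69e-05 and 9.53e-07). Aldh1a1, another such enzyme, was in contrast high in iHAC1-iPS cells, at 4.59 above ES cells (adjusted p = 0.000299). Cdx2, a trophoblast and tail factor, was not well above background in MEFs or iHAC2-iPS cells, and was at least 21.7-fold (adjusted p = 0.00671) and at least 9.19-fold (adjusted p = 0.0188) lower there than in ES cells. In iHAC1-iPS cells, where it stood well above background on 2 of 4 arrays, it was also called lower (adjusted p = 0.0123). In all, 4 were higher and 2 lower in MEFs than in ES cells, and 2 higher and 4 lower with iHAC1 than in ES cells. Over all tested probes the shares were 13.5% and 16.1% for MEFs, and 6.88% and 7.39% with iHAC1.

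Among 19 genes of the Polycomb and Trithorax groups, which keep Hox genes silent or active, 3 were higher and 10 lower in MEFs than in ES cells. Of all tested probes 13.5% were higher and 16.1% lower. Suz12 (-1.45, adjusted p = 0.000434), Eed (-1.80, adjusted p = 0.00946) and Ezh2 (-1.17, adjusted p = 0.0168), the core of the complex that methylates histone H3 at silent genes, were lower in MEFs. Bmi1 (3.0, adjusted p = 0.00211) was higher, and Cbx7 (-7.06, adjusted p = 0.000275), the form of the chromodomain subunit known for ES cells, was lower. In iHAC1-iPS cells Bmi1 was 3.03 above (adjusted p = 0.000507) and Cbx7 3.92 below ES cells (-3.92, adjusted p = 0.00207), on the side of MEFs, with 3 of 19 higher and 3 lower. The shares of all tested probes in that comparison were 6.88% higher and 7.39% lower. In iHAC-free iPS cells 0 of the 19 were called against ES cells (0.172% of all tested probes higher and 0.194% lower).

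Genes next to the clusters were read to see the chromosome around them. Of 20 measured neighbours, 1 was higher and 4 lower in MEFs than in ES cells, with a median difference of -0.47. Of all tested probes 13.5% were higher and 16.1% lower, with a median of -0.20. Of 12 other positional transcription factors of limb and trunk mesenchyme, 8 were higher in MEFs than in ES cells and 7 than in iHAC1-iPS cells, with 0 lower. The shares of all tested probes that were higher in MEFs were 13.5% and 9.16%. Pitx1, which marks the hindlimb, was 5.82 above ES cells (adjusted p = 0.000802) and 5.74 above iHAC1-iPS cells (adjusted p = 0.000612), and Tbx5, which marks the forelimb, 4.99 (adjusted p = 0.000225) and 4.34 (adjusted p = 0.000327). Meox2, a muscle and mesenchyme factor, was at least 46.6-fold higher in MEFs than in iHAC1-iPS cells (adjusted p = 6.81e-07), where it was not well above background. Msx1 was 4.04 above ES cells (adjusted p = 0.000251) and 2.17 above iHAC1-iPS cells (adjusted p = 0.00702), and it was also above ES cells in iHAC1-iPS cells (1.86, adjusted p = 0.00500). Between iHAC-free iPS and ES cells 0 of 12 were called (0.172% of all tested probes higher and 0.194% lower).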

How the data were processed

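RNA of 16 cultures was hybridised to 1-colour arrays. The deposited intensity values were made by the authors with Feature Extraction 10.7.1.1 or 10.7.3.1, which subtracts a fitted background surface and detrends the signal. The log2 values that the authors deposited in a separate table, made with GeneSpring GX (settings not given in the sources used here), served as an alternative. Control and outlier spots were left out, spots of a probe were averaged, and log2 signals were centred on the 75th percentile of their array. The probes that passed background on at least 1 array (31415 of 41174) were fitted with limma 3.58.1 in R 4.3.3, with 6 groups and no block, and p-values were adjusted by Benjamini-Hochberg over all of them. Where a group was not well above background on any array, its fold is a bound against the higher of the lowest reliable signal and the measured signal on each array. The script was tested on simulated data. Tables were made with Python 3.11.15, numpy 2.4.6 and pandas 2.3.3, and figures with matplotlib 3.10.9.

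The Hox genes and the lists of cofactors, regulators, neighbours, positional factors and fibroblast and pluripotent markers were chosen with earlier results of these data known. Named were all Hox genes called in any comparison or measured in MEFs or throughout a group. Arrays were given singly for up to 3 genes per cluster with the most calls, with larger differences between MEFs and ES cells first, and Hoxc5 was added after its values were seen. The values of 1 Hox gene and 1 cofactor are not reported here, although both stand in the counts. The probe of highest mean level stood for a gene. Each iHAC-free line came from a named iHAC2-iPS clone, which pairs these groups by cell line, and the deviations of same-origin lines from their group means correlated at -0.066, -0.219, 0.034 and 0.08. Alternatives were normexp with an offset of 50, quantile normalization, the deposited table, filters on dim probes, slide as a block, fits of only the compared groups, and leaving out each array.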

Additional observations from a re-analysis of the deposited data

Results flagged for a closer look

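In 3 of 79 sets of 4 clones, 1 array lay apart from the other 3, where chance gives about 1 in 20 sets. Hoxd8 had a level of -1.90 in F-C5 against -4.51 to -4.46 in the other iHAC-free iPS lines. Hoxb8 had -4.28 in F-B1 against -4.99 to -4.90, in the same group. Hoxa11 had -4.72 in 2-E against -3.49 to -3.33 in the other iHAC2-iPS clones. All 3 signals were well above background.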

How the results depend on the processing

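The 30 Hox calls of MEFs against ES cells ranged from 17 to 30 when 1 array was left out, with 17 without B6ES. The 3 calls of iHAC1-iPS against ES cells became 1 with normexp, 5 with a strict filter on dim probes, 0 with the slide as a fixed block and 0 to 3 without 1 array. The 2 calls of iHAC2-iPS against ES cells became 0 with normexp, 1 with quantile normalization, 0 with only the compared groups and 0 to 5 without 1 array (0 without B6ES, 1 without TT2, 5 without 2-C6, 4 without 2-E). For iHAC-free iPS against ES cells 0 became 1 with the slide as a random block. The 9 calls between iHAC1-iPS and iHAC2-iPS became 1 with normexp. Between MEFs and iHAC1-iPS the 28 calls stayed within 1.5 times under every alternative run, but with normexp 20 were higher and 1 was lower in MEFs. With the replicate block that pairs each iHAC-free line with its parent clone, 0 Hox probes were called, as without it, and the block changed no other call.

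Of 836 alternative values of the 72 called single differences, 549 (MEF comparisons) and 159 (others) kept direction and call, 71 and 52 kept the direction only and 5 turned. With normexp, differences in favour of MEFs turned for Hoxc13 (-0.28 against ES and -0.22 against iHAC1-iPS cells), for the second Hoxc10 probe (-0.16 and -0.0946) and for Hoxa13 against iHAC1-iPS cells (-0.0885). With normexp the median of all probes moved from -0.20 to -0.33 in both comparisons with MEFs and from 0.02 to -0.16 for iHAC-free iPS against ES cells. With quantile normalization it moved from -0.20 to -0.07 for MEFs against ES cells. The cause of these changes was not tested. Dim probes limit the folds to bounds, and a single MEF array and a pair of ES lines limit every comparison with them.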
